A study of Mus musculus with 16 samples.

Results

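The genes described here act at the first steps of T cell receptor signalling: the CD3 chains Cd3d, Cd3e and Cd3g, the kinases Lck and Zap70, the adaptors Lat and Lcp2, the regulator Themis and the surface protein Thy1. They were listed by symbol, with earlier results of these data known, so counts of them beside shares of all genes are descriptions only. Of the 9 genes listed, 8 had a probe set with 1 gene symbol, out of 22180 genes so measured. Lck had none in the annotation and was not analysed here. Each of the 8 had 1 probe set, and all 8 were among the 16760 genes bright enough to be tested: the lowest group mean of any of them, 5.67 for Themis, lay above the limit of 3.549 on the log2 scale.

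Expression was measured on 16 arrays of regulatory T cells (Treg cells), the CD4+ T cells that restrain immune responses, in 4 groups of 4 arrays. The groups were Atg7-/- cells from mice given rapamycin, Atg7+/- cells from mice given rapamycin, Atg7-/- cells from untreated mice and Atg7+/- cells from untreated mice. All mice were C57BL/6 and carried Foxp3-Cre, a Cre recombinase expressed where the Treg factor Foxp3 is active, so deletion was directed to Foxp3-expressing cells. The Atg7-/- cells had the genotype Atg7fl/flFoxp3-Cre and the Atg7+/- cells Atg7+/flFoxp3-Cre, with 1 floxed allele, so each comparison of genotypes had a heterozygous and not a wild-type control. Atg7 is an enzyme of autophagy, by which cells deliver their own contents to the lysosome. Rapamycin, which inhibits the kinase mTOR, was injected at 4 mg per kg on each of 5 days, and untreated mice were not described as injected with vehicle. After sorting for CD4 and a Foxp3-YFP reporter, cells of all 4 groups were cultured 4 h on plates coated with anti-CD3 and anti-CD28, so no group holds unstimulated cells. The number and age of the mice behind each array are not given in the labels, and p-values therefore measure the spread between these arrays, which may be partly technical.

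When a T cell receptor binds its ligand, Lck phosphorylates paired tyrosine motifs in the tails of the CD3 chains, and Zap70 docks there. Zap70 then phosphorylates the membrane adaptor Lat and the cytosolic adaptor SLP-76, the product of Lcp2, which together gather the enzymes that raise calcium and activate Ras. Treg cells depend on signals from this receptor for their function, and the antibody to CD3 used here engages the CD3 chains directly.

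Each deposited value is the log2 signal of 1 probe set on 1 array. Differences are differences of log2 values, for which a fold is given where useful. Signals of different probe sets are not comparable as levels, so each gene is compared only with itself. The Treg marker Foxp3 was bright: it averaged 10.99, 11.34, 10.86 and 11.26 in the 4 groups in the order given above. These means lay above 99.2% to 99.6% of all gene values on the arrays. Atg7 itself was measured by 1 probe set at 6.48 ± 0.314 against 6.78 ± 0.0781 under rapamycin and 6.38 ± 0.240 against 6.66 ± 0.0598 without it (Atg7-/- against Atg7+/-, SD, n = 4 each); whether that probe set lies in the deleted part is not given, so it does not check the genotype labels. Array medians lay between 4.41 and 4.63, and correlations within groups over the genes tested between 0.98 and 0.994. Rapamycin Atg7-/- replicate 3 stood apart, with the lowest median; on the second principal component it scored -29.8, and the rest of its group -12.9 to -7.57. Values without it are given where they change a call, bring an interval to or off 0, or move a difference by over 1.5 times.

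The promoters of Zap70, Lat, Cd3g and Cd3e, which fell under rapamycin in both genotypes, and that of Themis, which had another pattern, are shown as the 250 bases before the first listed gene start (RefSeq, build GRCm38.p6, 5′ to 3′ along the gene). Of the 9 listed genes 8 had a promoter entry, all but Thy1. Capitals mark matches on either strand to 5 sets of letters: GGAAG, the core bound by ETS factors, CANNTG (E-box), TGTGGT (RUNX core), TGANTCA (AP-1 site) and TGACGTCA (cyclic AMP response element).
Zap70, chr1:36761548-36761797, plus strand: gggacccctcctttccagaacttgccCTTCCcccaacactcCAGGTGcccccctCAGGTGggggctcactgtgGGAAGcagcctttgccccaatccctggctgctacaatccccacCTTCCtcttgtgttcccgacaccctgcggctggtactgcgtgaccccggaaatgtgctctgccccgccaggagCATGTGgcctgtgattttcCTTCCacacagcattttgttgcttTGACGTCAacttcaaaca
Lat, chr7:126369569-126369818, minus strand: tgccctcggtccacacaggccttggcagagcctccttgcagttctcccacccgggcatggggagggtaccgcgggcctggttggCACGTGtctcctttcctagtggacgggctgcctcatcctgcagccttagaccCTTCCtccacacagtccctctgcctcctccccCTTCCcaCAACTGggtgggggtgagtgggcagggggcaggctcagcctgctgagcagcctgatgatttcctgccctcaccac
Cd3g, chr9:44980432-44980681, minus strand: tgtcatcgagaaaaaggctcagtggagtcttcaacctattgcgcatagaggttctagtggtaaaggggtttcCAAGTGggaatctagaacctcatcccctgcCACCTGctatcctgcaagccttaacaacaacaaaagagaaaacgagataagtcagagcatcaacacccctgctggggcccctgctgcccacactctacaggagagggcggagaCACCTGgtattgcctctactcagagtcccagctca
Cd3e, chr9:45009612-45009861, minus strand: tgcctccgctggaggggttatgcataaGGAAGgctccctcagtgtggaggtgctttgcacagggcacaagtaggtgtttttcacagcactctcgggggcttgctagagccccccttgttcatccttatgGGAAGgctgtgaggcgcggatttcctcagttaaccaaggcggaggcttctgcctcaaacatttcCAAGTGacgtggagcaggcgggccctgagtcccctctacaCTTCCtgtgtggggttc
Themis, chr10:28668110-28668359, plus strand: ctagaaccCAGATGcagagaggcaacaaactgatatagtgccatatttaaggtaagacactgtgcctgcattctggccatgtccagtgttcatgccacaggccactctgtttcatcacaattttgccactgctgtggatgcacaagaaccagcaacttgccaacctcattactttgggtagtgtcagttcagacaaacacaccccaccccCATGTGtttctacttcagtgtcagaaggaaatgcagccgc

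No marked matches overlapped in these 5 windows. Zap70 was the 1 member whose first listed promoter held TGACGTCA, ending 11 bases before the gene start; 1.62% of 27025 promoters of the same length held those letters. Zap70, Lat and Cd3e held GGAAG or its reverse complement, which 63.6% of all promoters held, whereas these letters were not in the windows of Cd3g and Themis. Each of the 5 held an E-box, as did 66.0% of all promoters. None held TGANTCA (6.87% of all) or TGTGGT (14.2%). Cd3g and Cd3d start 1355 bases apart and are read in opposite directions, and Cd3e starts 27825 bases from Cd3d on the same chromosome, 9. A match is a description of letters only.

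Rapamycin was followed by lower signals of most of these genes in both genotypes. In Atg7-/- cells 6 of the 8 fell and none rose at an adjusted p under 0.05, by limma over all 16760 genes, of which 11.1% fell and 8.83% rose. In Atg7+/- cells 5 fell and none rose, beside 8.11% of all genes that fell and 6.03% that rose. The split of all genes moved with the scaling in both genotypes. In Atg7-/- cells it was 1480 higher and 1867 lower, and 1358 higher and 1374 lower with median centring of arrays. In Atg7+/- cells it was 1011 higher and 1359 lower, and 667 higher and 1449 lower with median centring. All 5 in Atg7+/- cells, Cd3e, Cd3g, Zap70, Lat and Thy1, were also among the 6 that fell in Atg7-/- cells, and the sixth was Themis. These 2 comparisons share no array, but they share the spread of each gene in the fit. The share of all genes called lower in both genotypes was not counted. The median log2 difference of the 8 was -0.39 in Atg7-/- cells and -0.55 in Atg7+/- cells, beside -0.04 and -0.03 over all genes. All 8 differences were negative in both genotypes, beside 43.9% of all genes. Rapamycin and untreated arrays did not overlap for 5 of the 8 in Atg7-/- cells, all lower with rapamycin (11.6% of all genes were lower and 8.76% higher without overlap), and for 7 of the 8 in Atg7+/- cells, all lower (13.1% and 9.64% of all genes). In these sorted cells measured in bulk, less RNA per cell and fewer cells expressing a gene cannot be told apart.

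**Figure D1:**
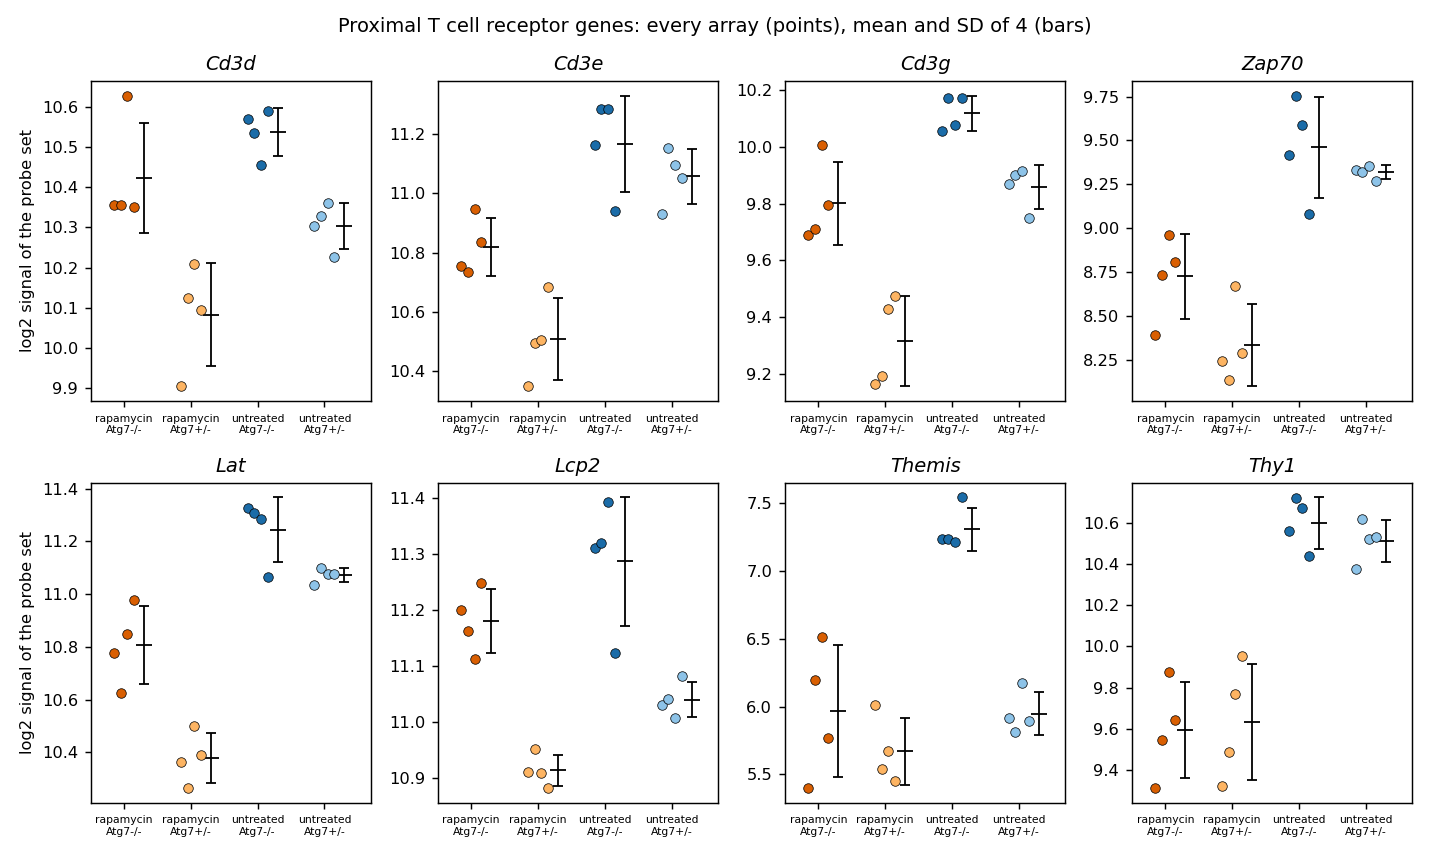
Log2 signal of the 8 genes on each of the 16 arrays (points, replicates 1 to 4 from left to right in each group), with the mean and SD of the 4 arrays beside them (bars). The vertical axes differ between genes and do not start at 0. Cd3e, Cd3g, Zap70, Lat and Thy1 lay lower in the rapamycin groups, and Themis stood at 7.21 to 7.54 in untreated Atg7-/- cells, above every other array.

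Cd3e encodes the epsilon chain, which pairs with both other chains and is needed to bring the receptor to the cell surface. Its log2 signal was 10.75, 10.73, 10.95 and 10.84 in rapamycin Atg7-/- cells and 10.35, 10.49, 10.51 and 10.68 in rapamycin Atg7+/- cells. Untreated Atg7-/- cells had 11.16, 11.29, 11.28 and 10.94, and untreated Atg7+/- cells 10.93, 11.15, 11.10 and 11.05. Rapamycin Atg7+/- cells had the 4 lowest values of all 16, and both untreated groups overlapped each other. Under rapamycin Cd3e fell 1.46-fold in Atg7+/- cells (log2 difference -0.55, SE 0.0968, limma adjusted p = 0.00142). In Atg7-/- cells it fell 1.27-fold (-0.35, SE 0.0968, limma adjusted p = 0.0167), where the groups overlapped by 1 array on each side. That call was lost without untreated Atg7-/- replicate 2 or 3 (adjusted p = 0.0522 and 0.0524), after median centring of arrays (0.0533) and with only the 2 groups fitted (0.0516).

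Cd3g, the gamma chain, which pairs with epsilon, followed the same order of groups with less overlap. Its log2 signal was 9.69, 9.71, 10.01 and 9.80 in rapamycin Atg7-/- cells, against 9.16, 9.19, 9.43 and 9.47 in rapamycin Atg7+/- cells. In untreated cells it was 10.06, 10.17, 10.08 and 10.17 for Atg7-/- and 9.87, 9.90, 9.92 and 9.75 for Atg7+/-. Within each treatment the 4 Atg7-/- arrays lay above the 4 Atg7+/- arrays, while rapamycin Atg7-/- and untreated Atg7+/- cells overlapped. The rapamycin difference was -0.55 in Atg7+/- cells (SE 0.0937, 1.46-fold lower, limma adjusted p = 0.00116) and -0.32 in Atg7-/- cells (SE 0.0937, 1.25-fold lower, limma adjusted p = 0.0231). The call in Atg7-/- cells was lost without untreated Atg7-/- replicate 2 or 4, without rapamycin Atg7-/- replicate 1 or 2 (adjusted p = 0.0566, 0.0517, 0.0595 and 0.0647), with median centring (0.0898) and with only the 2 groups fitted (0.0570).

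Cd3d, the delta chain, also a partner of epsilon, had the smallest rapamycin differences of the 3 chains. Rapamycin Atg7-/- cells had 10.36, 10.36, 10.63 and 10.35 and rapamycin Atg7+/- cells 9.90, 10.12, 10.21 and 10.10. Untreated Atg7-/- cells had 10.57, 10.54, 10.46 and 10.59 and untreated Atg7+/- cells 10.30, 10.33, 10.36 and 10.23. Under rapamycin every Atg7-/- array lay above every Atg7+/- array, and only in Atg7+/- cells did the treated and untreated arrays not overlap. The rapamycin difference was -0.22 in Atg7+/- cells (95% interval -0.40 to -0.04, limma adjusted p = 0.0980) and -0.11 in Atg7-/- cells (-0.30 to 0.07, limma adjusted p = 0.374), neither past the threshold. Without rapamycin Atg7-/- replicate 3, which was high for Cd3d, the difference in Atg7-/- cells was -0.18 (-0.36 to -0.0056, limma adjusted p = 0.133). With trend and robust options or with array weights the difference in Atg7+/- cells passed the threshold (adjusted p = 0.0379 and 0.0425).

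Zap70, the tyrosine kinase that binds phosphorylated CD3 tails, had the largest rapamycin difference of the 8 in Atg7+/- cells. Its log2 signal was 8.39, 8.73, 8.96 and 8.81 in rapamycin Atg7-/- cells and 8.24, 8.13, 8.67 and 8.29 in rapamycin Atg7+/- cells, against 9.42, 9.76, 9.59 and 9.08 in untreated Atg7-/- and 9.33, 9.32, 9.36 and 9.27 in untreated Atg7+/- cells. Every rapamycin array lay below every untreated array, and within each treatment the genotypes overlapped. Zap70 fell 1.67-fold in Atg7-/- cells (log2 difference -0.74, SE 0.144, limma adjusted p = 0.00190) and 1.98-fold in Atg7+/- cells (-0.99, SE 0.144, limma adjusted p = 0.000324). From the lowest, Zap70 ranked 61 of 16760 genes by log2 difference in Atg7+/- cells and 249 in Atg7-/- cells. Untreated Atg7+/- arrays were tight (SD 0.0378), whereas the SD of the other 3 groups was 0.235 to 0.289, and the fit takes 1 spread for all.

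Lat, the membrane adaptor that Zap70 phosphorylates, gave 10.78, 10.62, 10.85 and 10.98 in rapamycin Atg7-/- cells and 10.36, 10.27, 10.50 and 10.39 in rapamycin Atg7+/- cells. Without rapamycin it gave 11.33, 11.31, 11.28 and 11.06 in Atg7-/- cells and 11.03, 11.10, 11.07 and 11.08 in Atg7+/- cells. Rapamycin and untreated arrays did not overlap in either genotype, and the 2 genotypes did not overlap under rapamycin. Lat fell 1.35-fold in Atg7-/- cells (-0.44, SE 0.0891, limma adjusted p = 0.00244) and 1.62-fold in Atg7+/- cells (-0.69, SE 0.0891, limma adjusted p = 0.000116).

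Lcp2, whose product SLP-76 works beside Lat, had the smallest rapamycin differences of the 8 genes. Its signal was 11.20, 11.16, 11.11 and 11.25 in rapamycin Atg7-/- cells, and 10.91, 10.95, 10.91 and 10.88 in rapamycin Atg7+/- cells. Untreated Atg7-/- cells had 11.31, 11.32, 11.39 and 11.12, and untreated Atg7+/- cells 11.03, 11.04, 11.01 and 11.08. All 8 Atg7-/- arrays lay above all 8 Atg7+/- arrays. The rapamycin difference was -0.11 in Atg7-/- cells (95% interval -0.26 to 0.05) and -0.13 in Atg7+/- cells (-0.28 to 0.03), with limma adjusted p = 0.335 and 0.280. In Atg7+/- cells the treated and untreated arrays did not overlap although the difference was not called.

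Thy1 is a lipid-anchored surface protein that marks mouse T cells. It had 9.31, 9.55, 9.88 and 9.64 in rapamycin Atg7-/- cells and 9.32, 9.48, 9.77 and 9.95 in rapamycin Atg7+/- cells, against 10.56, 10.72, 10.67 and 10.44 in untreated Atg7-/- and 10.38, 10.62, 10.52 and 10.53 in untreated Atg7+/- cells. The highest rapamycin array, 9.95, lay below the lowest untreated array, 10.38, and the genotypes overlapped within each treatment. Thy1 fell 2.01-fold in Atg7-/- cells (-1.01, SE 0.132, limma adjusted p = 8.01e-05) and 1.84-fold in Atg7+/- cells (-0.88, SE 0.132, limma adjusted p = 0.000416).

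Themis encodes a protein that tunes receptor signalling in developing T cells, where it binds the adaptor Grb2. Its log2 signal was 5.40, 6.20, 6.51 and 5.77 in rapamycin Atg7-/- cells and 6.01, 5.54, 5.68 and 5.45 in rapamycin Atg7+/- cells. In untreated Atg7-/- cells it was 7.24, 7.24, 7.21 and 7.54, and in untreated Atg7+/- cells 5.92, 5.82, 6.17 and 5.89. The 4 untreated Atg7-/- arrays were high and the other 3 groups overlapped one another. With rapamycin Themis fell 2.53-fold in Atg7-/- cells (-1.34, SE 0.183, limma adjusted p = 0.000103). In Atg7+/- cells the difference was -0.28 (95% interval -0.66 to 0.11, limma adjusted p = 0.336). The spread was widest in rapamycin Atg7-/- cells (SD 0.486, from 5.40 to 6.51 in replicate 3), and without replicate 3 the difference in Atg7-/- cells was -1.52.

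Loss of Atg7 was compared next, first in untreated cells. Themis rose 2.57-fold in Atg7-/- cells, at 7.31 ± 0.158 against 5.95 ± 0.156 in Atg7+/- cells (SD, n = 4 each; log2 difference 1.36, SE 0.183, limma adjusted p = 0.000706). By log2 difference it ranked 14 from the highest of 16760 genes. It was the 1 member of 8 called in this comparison, where 1.75% of all genes rose and 1.39% fell. The untreated Atg7-/- arrays also enter the rapamycin comparison in Atg7-/- cells, so the rise here and the fall there share those 4 arrays.

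The other 7 genes had log2 differences of 0.09 to 0.26 between untreated genotypes, all positive, beside a median of 0.02 over all genes. Lcp2 came nearest to the threshold, at 11.29 ± 0.114 against 11.04 ± 0.0313 (0.25, 95% interval 0.09 to 0.40, limma adjusted p = 0.0801). It was called with a stricter filter on dim genes, with trend and robust options, with array weights and without untreated Atg7-/- replicate 4, at adjusted p = 0.0478, 0.0105, 0.0196 and 0.0436. Cd3d (0.23, interval 0.05 to 0.42) and Cd3g (0.26, interval 0.06 to 0.46) were higher on all 4 Atg7-/- arrays but not called (limma adjusted p = 0.160 and 0.147). Arrays of the 2 genotypes did not overlap for 4 of the 8 genes, all higher in Atg7-/- cells, beside 8.17% of all genes that were higher and 5.97% that were lower without overlap. The intervals of Cd3e (-0.09 to 0.31), Zap70 (-0.16 to 0.44), Lat (-0.01 to 0.36) and Thy1 (-0.19 to 0.37) held 0, and the arrays of these 4 overlapped.

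**Figure D2:**
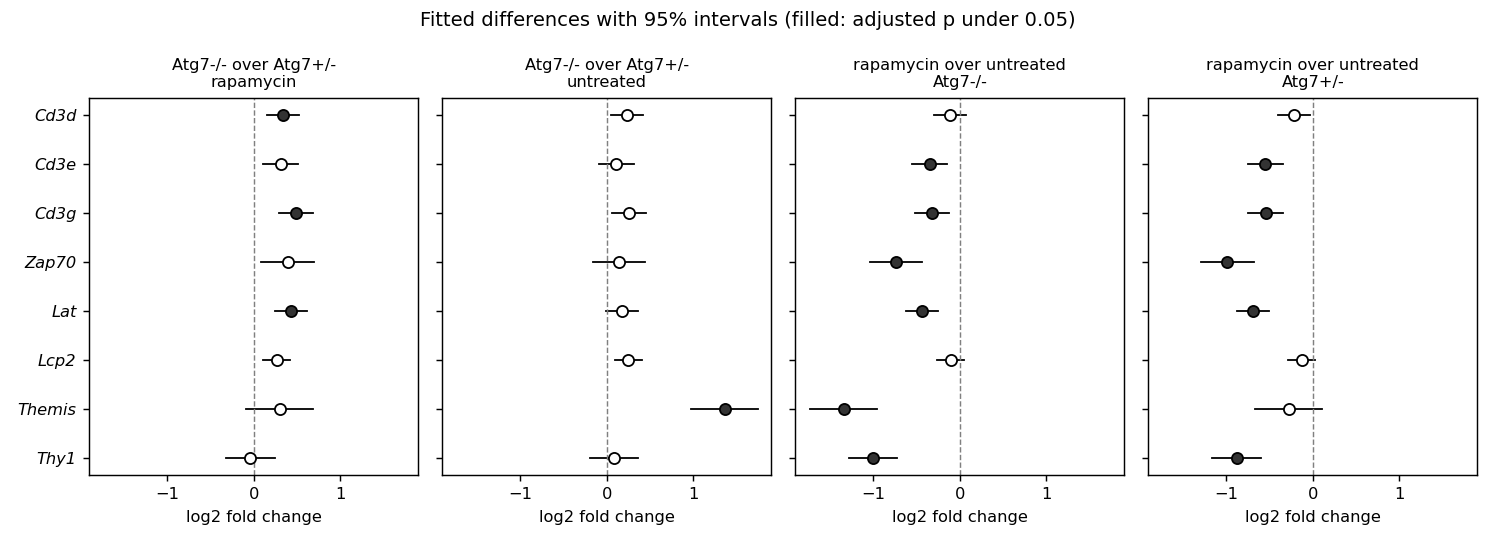
Log2 fold changes of the 8 genes in the 4 comparisons (points) with 95% intervals of the limma fit (lines); filled points passed an adjusted p of 0.05, and the dashed line marks no difference. Filled points lie to the right in the genotype comparisons, 3 under rapamycin and 1 in untreated cells, and to the left in the rapamycin comparisons, 6 in Atg7-/- and 5 in Atg7+/- cells.

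Under rapamycin 3 of the 8 genes were higher in Atg7-/- than in Atg7+/- cells and none was lower, where 1.91% of all genes rose and 1.33% fell. Here too the split of all genes moved with the scaling, at 320 higher and 223 lower, 542 higher and 241 lower with quantile normalization and 253 higher and 97 lower with median centring. It turned round without rapamycin Atg7-/- replicate 3 (115 higher and 172 lower), without rapamycin Atg7+/- replicate 1 (105 higher and 118 lower) or 2 (41 higher and 54 lower), and with only the 2 groups (6 higher and 14 lower). Cd3g was at 9.80 ± 0.146 against 9.31 ± 0.159 (SD, n = 4 each), 1.40-fold higher (log2 difference 0.49, SE 0.0937, limma adjusted p = 0.0112). Lat was at 10.81 ± 0.147 against 10.38 ± 0.0963, 1.34-fold higher (0.43, SE 0.0891, limma adjusted p = 0.0166). Cd3d was at 10.42 ± 0.137 against 10.08 ± 0.128, 1.27-fold higher (0.34, SE 0.0869, limma adjusted p = 0.0401). These calls depended on the fit: with only the 2 rapamycin groups, none of the 3 was called (adjusted p = 0.170 for Cd3d, 0.0946 for Cd3g and 0.103 for Lat). Without rapamycin Atg7+/- replicate 2 none was called either (0.111, 0.0589 and 0.0807 in the same order), and Lat was also not called without rapamycin Atg7-/- replicate 4 (0.0524).

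Cd3d was high on 1 array, rapamycin Atg7-/- replicate 3, at 10.63 beside 10.35 to 10.36 on the other 3. Without that array its difference was 0.27 (limma adjusted p = 0.114), while Cd3g and Lat stayed past the threshold at 0.42 and 0.41 (adjusted p = 0.0313 and 0.0410). The call for Cd3d was also lost without any 1 of 10 other arrays, among them 6 untreated ones that touch the comparison only through the shared spread, at adjusted p up to 0.122. It was lost as well with median centring, with no filter on dim genes and with array weights (adjusted p = 0.0608, 0.0533 and 0.0533).

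Of the genes not called under rapamycin, Lcp2 (0.27, 95% interval 0.11 to 0.42, limma adjusted p = 0.0571) and Cd3e (0.31, 0.11 to 0.51, limma adjusted p = 0.0848) were higher on all 4 Atg7-/- arrays. Lcp2 was called with median centring, the stricter filter on dim genes, trend and robust options, array weights and without untreated Atg7-/- replicate 4, at adjusted p = 0.0463, 0.0329, 0.00620, 0.0432 and 0.0390. Cd3e was called with trend and robust options (0.0256). With both, 5 of the 8 genes did not overlap, all higher in Atg7-/- cells, beside 6.01% of all genes that were higher and 3.76% that were lower without overlap. Zap70 had a difference of 0.39 (interval 0.09 to 0.70, limma adjusted p = 0.145) with overlapping arrays, and 0.31 (-0.0055 to 0.63) without rapamycin Atg7-/- replicate 3. Themis differed by 0.30 (-0.09 to 0.68), or by 0.12 (-0.23 to 0.47) without that array. Thy1 differed by -0.04 (-0.32 to 0.24), or by -0.13 (-0.41 to 0.15) without it. Arrays of the 2 genotypes overlapped for both.

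Markers of other cell types are given beside these differences. Of 8 markers of CD8 T and NK cells 7 had a probe set, 6 were tested, and 2 were higher in Atg7-/- cells under rapamycin, Cd8b1 (0.72, limma adjusted p = 0.0198) and Nkg7 (0.94, limma adjusted p = 0.00778). The median log2 difference of the 6 under rapamycin was -0.007, beside 0.017 over all genes. In untreated cells it was 0.087, beside 0.022 over all genes. The summed signal of the 7 on a linear scale ran from 393 to 436 in rapamycin Atg7-/- cells and from 230.4 to 284 in rapamycin Atg7+/- cells. In untreated cells it ran from 462 to 496 in Atg7-/- and from 322 to 354 in Atg7+/- cells, where Nkg7 was the 1 called (0.86, limma adjusted p = 0.00855). Cd8a, a defining marker, averaged 4.45, 4.63, 4.67 and 4.60 in the 4 groups, near the middle of all values on the arrays. CD8 T cells also express the CD3 chains, Lat and Themis, and the part of such cells in the differences was not tested.

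Other lists moved with rapamycin. Cd4, a marker used in the sort and the coreceptor that carries Lck to the receptor, fell by 0.75 in Atg7-/- cells and by 0.67 in Atg7+/- cells on the log2 scale (limma adjusted p = 0.00233 and 0.00769). Of 6 B cell markers 5 had a probe set and 4 were tested; Pax5 fell in both genotypes and Blnk in Atg7+/- cells. The summed signal of the 5 ran from 86.3 to 102 in rapamycin Atg7-/- cells against 103 to 119 in untreated Atg7-/- cells, and from 85.3 to 107 in rapamycin Atg7+/- cells against 103 to 119 in untreated Atg7+/- cells. That of 7 macrophage and dendritic cell markers ran from 135 to 384 against 193 to 273 in Atg7-/- cells, where C1qa fell, and from 218 to 304 against 175 to 208 in Atg7+/- cells, where Flt3 rose. The median log2 difference of these 7 with rapamycin was negative in both genotypes, at -0.24 in Atg7-/- and -0.09 in Atg7+/- cells. For 6 Treg markers, Cd4 among them, the sums were 11138 to 11737 against 11202 to 12346 in Atg7-/- cells and 12182 to 13250.1 against 11751 to 12394 in Atg7+/- cells (rapamycin against untreated). Of the 6, Tnfrsf18 rose in both genotypes and Ctla4 fell in Atg7-/- cells with rapamycin, and Foxp3 was lower in untreated Atg7-/- than in untreated Atg7+/- cells (-0.40, limma adjusted p = 0.0355). The summed signal of the 7 CD8 T and NK cell markers was lower with rapamycin. In Atg7-/- cells it ran from 393 to 436 against 462 to 496. In Atg7+/- cells it ran from 230.4 to 284 against 322 to 354. None of the 6 tested was called with rapamycin, and their median log2 difference was -0.18 in Atg7-/- and -0.26 in Atg7+/- cells. The part of the cells of all these markers in the fall of the 8 genes was not tested.

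The difference between the rapamycin effects of the 2 genotypes, Atg7-/- minus Atg7+/-, was called for none of the 8 genes and for none of 16760 by limma; at an unadjusted p under 0.05 there were 1 of the 8 and 1052 of all. That gene was Themis, with a difference of -1.06 (SE 0.258, 95% interval -1.60 to -0.52, limma adjusted p = 0.349, or 0.106 to 0.595 with each array left out in turn). The effects for Themis, -1.34 in Atg7-/- and -0.28 in Atg7+/- cells, thus did not pass the test of their difference. For Lat the difference was 0.25 (-0.01 to 0.52), for Zap70 0.25 (-0.18 to 0.68), for Cd3g 0.23 (-0.05 to 0.51) and for Cd3e 0.20 (-0.09 to 0.49). The positive values of these 4 mean a smaller fall in Atg7-/- cells, and every one of the intervals held 0. Cd3d, Lcp2 and Thy1 gave 0.11 (-0.15 to 0.37), 0.02 (-0.20 to 0.24) and -0.12 (-0.52 to 0.27). Without rapamycin Atg7-/- replicate 3 these 3 were 0.04 (-0.20 to 0.28), 0.04 (-0.19 to 0.27) and -0.22 (-0.60 to 0.16).

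By group means the order from high to low was untreated Atg7-/-, untreated Atg7+/-, rapamycin Atg7-/- and rapamycin Atg7+/- for Cd3e, Cd3g, Zap70 and Lat. For Cd3d and Lcp2 rapamycin Atg7-/- cells came before untreated Atg7+/- cells. Neighbours in that order overlapped for Cd3d except untreated and rapamycin Atg7+/- cells, and for Lcp2 only the 2 Atg7-/- groups overlapped. For Thy1 both untreated groups, which overlapped, came before both rapamycin groups, which also overlapped, and for Themis only untreated Atg7-/- cells stood apart.

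**Figure D3:**
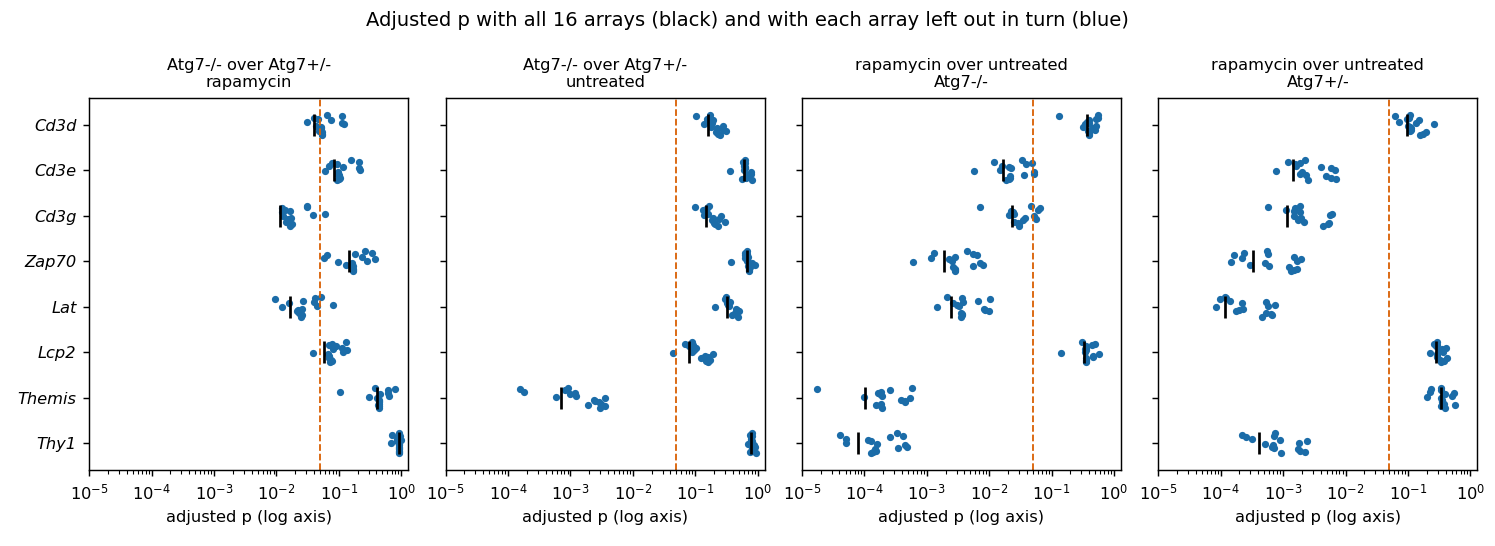
Limma adjusted p of each gene in the 4 comparisons, on a log axis, with all 16 arrays (black tick) and with each array left out in turn (16 blue points); the dashed line marks 0.05. Points for Cd3d, Cd3g, Lat and Lcp2 lie on both sides of the line in the genotype comparison under rapamycin, those for Lcp2 in untreated cells, and those for Cd3e and Cd3g in the rapamycin comparison of Atg7-/- cells, while Zap70, Lat and Thy1 stay left of it in both rapamycin comparisons, as does Themis between untreated genotypes and under rapamycin in Atg7-/- cells.

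Other genes of the pathway were counted from 5 lists of 69 genes, of which 65 were tested. Under rapamycin 19 of the 65 fell and 2 rose in Atg7-/- cells, and 19 fell and 4 rose in Atg7+/- cells, with medians of -0.14 and -0.12. The shares called, 32.3% and 35.4%, stand beside 20.0% and 14.1% of all genes. By direction, 11.1% of all genes fell and 8.83% rose in Atg7-/- cells, and 8.11% fell and 6.03% rose in Atg7+/- cells. Counts from the single lists below, which are small, stand beside the same shares. Of the 19 pathway genes that fell in each genotype, 12 fell in both (63.2% of each list). The share of all genes that fell in both was not counted. Between genotypes 2 rose and 2 fell under rapamycin and 1 fell in untreated cells, 6.15% and 1.54% called, beside 3.24% and 3.14% of all genes.

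Of 8 genes of the receptor complex and coreceptors 2 fell in each genotype under rapamycin: Cd4 in both, Cd28, the costimulatory receptor engaged here by antibody, in Atg7-/- cells (-0.42), and Cd6 in Atg7+/- cells (-0.29). Ptprcap, which associates with the phosphatase CD45, was higher in Atg7-/- cells under rapamycin (0.43, limma adjusted p = 0.0176). Of 9 proximal kinases and their regulators 4 fell in Atg7-/- cells and 2 in Atg7+/- cells. Ptpn6, the phosphatase SHP-1, fell in both (-0.50 and -0.72) and was higher in Atg7-/- cells under rapamycin (0.47, limma adjusted p = 0.0158). Csk, which holds Lck inactive (-0.53), the kinase Tec (-0.50) and the phosphatase Ptpn22 (-0.31) fell in Atg7-/- cells, and Ptpn11, the phosphatase SHP-2, in Atg7+/- cells (-0.45). Ptpn22 was also lower in Atg7-/- than in Atg7+/- cells under rapamycin (-0.32, limma adjusted p = 0.0459).

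Of 19 adaptors and exchange factors 3 fell in Atg7-/- cells under rapamycin, namely Vav1, an exchange factor bound by SLP-76 (-0.58), the Ras exchange factor Sos2 (-0.43) and the adaptor Lax1 (-0.36). In Atg7+/- cells 6 fell and 1 rose, led by Sit1, a membrane adaptor (-0.91), Vav1 (-0.73), Grap2, the adaptor Gads that joins SLP-76 to Lat (-0.63), and Sos2 (-0.45). Of 15 enzymes below Lat and Lcp2 the phospholipase Plcg1 fell in both genotypes (-0.48 and -0.38), among 3 that fell in Atg7-/- and 4 in Atg7+/- cells. Nfatc2, a calcium-driven transcription factor, also fell in both (-0.33 and -0.33), Itpkb, an inositol phosphate kinase, in Atg7-/- cells (-0.36), and Itpr3, a calcium channel (-0.46), and Nfatc1 (-0.42) in Atg7+/- cells. Those that rose were Bcl10 in Atg7-/- cells (0.28) and, in Atg7+/- cells, Malt1 (0.41), both parts of the complex that links the receptor to NF-kappaB, with Ppp3cb (0.30), a calcineurin subunit. Itpkb was lower in Atg7-/- than in Atg7+/- cells both under rapamycin (-0.54, limma adjusted p = 0.0166) and in untreated cells (-0.50, limma adjusted p = 0.0196).

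Inhibitors of the pathway were among the genes that fell. A list of inhibitors gave 14 tested genes. Of these, 7 fell and 1 rose in Atg7-/- cells under rapamycin, and 5 fell and 1 rose in Atg7+/- cells. Over all genes 11.1% fell and 8.83% rose in Atg7-/- cells, and 8.11% fell and 6.03% rose in Atg7+/- cells. Ubash3b, a phosphatase that acts on Zap70, led the falls in both genotypes (-0.80, limma adjusted p = 4.91e-05, and -0.78, limma adjusted p = 0.000121). Dok1, an adaptor that recruits Ras inhibitors, fell by 0.45 and 0.69. Ubash3a, a relative of Ubash3b (-0.36 and -0.56), and Sla, an adaptor that lowers receptor levels (-0.50 and -0.36), also fell in both. So did the adaptor Sh2d3c (-0.54 and -0.38), which is counted in the list but is not an established inhibitor. Dgkz, a diacylglycerol kinase, fell in Atg7-/- cells (-0.54). The gene that rose in both was Rasa1, a Ras GTPase-activating protein (0.43 and 0.35). None of the 14 was called between genotypes, where few genes were called at all, 3.24% under rapamycin and 3.14% in untreated cells.

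**Figure D4:**
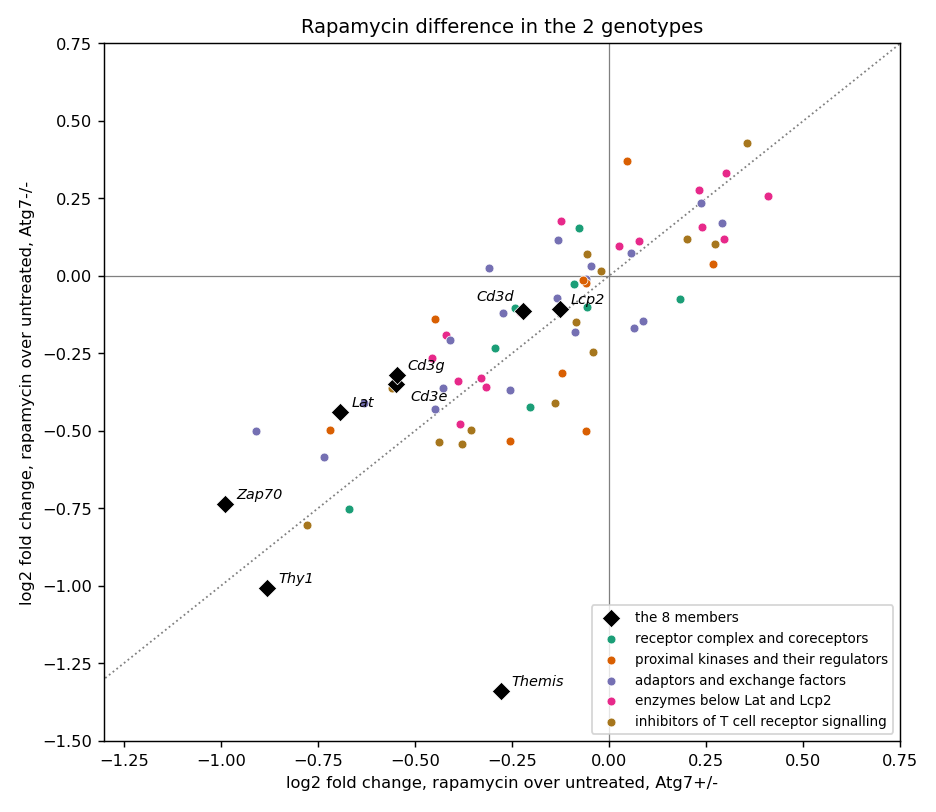
Log2 fold change with rapamycin in Atg7-/- cells (vertical axis) against that in Atg7+/- cells (horizontal axis) for the 8 genes (diamonds) and 65 other genes of the pathway (circles, coloured by list); the dotted line marks equal change. All 8 diamonds lie where both values are negative, as do 40 of the 65 circles, and Themis lies farthest below the dotted line.

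The genes whose signal over the 16 arrays was most like that of each member were sought among 14330 named genes, as a description with no test. The arrays fall into 4 groups that share the differences between groups; with each group's mean removed, r with the genes named ran from 0.47 to 0.93. Cd3d was most like Hcst (r = 0.94) and Lyar (r = 0.94), Cd3e most like Gstp1 (r = 0.97) and Rac2 (r = 0.97), and Cd3g most like Ssr2 (r = 0.98) and Cst7 (r = 0.96). For the kinase and adaptors they were Ly6e (r = 0.98) and Psmd3 (r = 0.97) for Zap70, Slfn2 (r = 0.98) and Tnfsf14 (r = 0.98) for Lat, and Mcoln3 (r = 0.94) and Stap1 (r = 0.93) for Lcp2. Themis was most like S100a6 (r = 0.96) and Havcr2 (r = 0.96), and Thy1 most like Nrp1 (r = 0.98) and Acap1 (r = 0.97). No member was among the 2 nearest genes of another. Between members, r over the 16 arrays ran from 0.38 (Lcp2 and Thy1) to 0.94 (Cd3e and Lat). With each group's mean removed it ran from -0.53 (Lcp2 and Themis) to 0.84 (Cd3e and Thy1) and was negative for 5 pairs, those of Lcp2 with Themis, Cd3d and Cd3g and those of Themis with Lat and Cd3e.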

How the data were processed

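RNA of 16 samples was hybridised to gene arrays. The authors deposited log2 signals, 1 for each probe set. Per the submitters' processing notes, RMA and Partek 6.6 were used, in a manner not given. Base 2 was assumed from the use of RMA, since the file does not state it, and the genome build is not given in the sources used here. Of 41345 probe sets, 23521 had 1 gene symbol in the platform annotation, 1814 had several and 16010 were not listed. Those with 1 symbol stood for 22180 genes, each represented by its brightest probe set; 16760 with a group mean above 3.549, the 30th percentile of all values, were tested. Limma 3.58.1 (R 4.3.3; lmFit with 1 mean per group, eBayes, 12 residual and 5.64 prior degrees of freedom) gave two-sided p-values, adjusted by Benjamini-Hochberg over these genes. The procedure was tested on simulated data with the same spread for a gene in every group. That simulation does not cover unequal spreads between groups or an outlying array. Arrays give no read depth, so their number limits the precision. The members, the gene lists and the rule for named genes (all members, and up to 4 called genes with the largest change per list and comparison; Ppp3cb, Rasa1 and the cell type markers lie outside it, chosen after their values were seen) were chosen with earlier results of these data known. Alternatives covered normalization, filters, probe sets, variance models, array weights, pairing and leaving out each array.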

Additional observations from a re-analysis of the deposited data

Results flagged for a closer look

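Of 32 sets of 4 arrays (8 genes in 4 groups), 3 held an array far from the other 3, where chance gives about 1 in 20. Cd3d was at 10.63 in rapamycin Atg7-/- replicate 3, against 10.35 to 10.36 on the other 3 arrays of that group. Lat was at 11.06 in untreated Atg7-/- replicate 4, against 11.28 to 11.33. Themis was at 7.54 in the same array, untreated Atg7-/- replicate 4, against 7.21 to 7.24.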

How the results depend on the processing

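Of 992 values of single members under the alternatives, 944 kept direction and side of the threshold, 30 lost a call, 12 gained one and 6 changed sign. The sign changed for Thy1 between genotypes under rapamycin, at 0.021 with median centring and -0.141 to 0.069 with 1 array left out, and for Lcp2 in the difference of the rapamycin effects, at -0.034 to 0.056 with 1 array left out. Members called between untreated genotypes were 1, or 2 with the stricter filter, 2 with trend and robust options and 2 with array weights, and 1 to 2 with 1 array left out. Between genotypes under rapamycin they were 3, or 5 with trend and robust options, 0 with only the 2 groups, and 0 to 4 with 1 array left out. Rapamycin calls ran from 4 to 6 in Atg7-/- cells with 1 array left out and were 5 each time in Atg7+/- cells, and stayed within 1.5 times under every other alternative. Genes called between untreated genotypes were 527 of 16760 tested, or 318 of 16778 with median centring and 974 of 16760 with array weights. With 1 array left out, which moved the number tested a little, they were 284 to 694. They were over 1.5 times fewer without any 1 of untreated Atg7-/- replicates 1 and 4 and untreated Atg7+/- replicates 1 to 4. Under rapamycin the genes called between genotypes were 543, or 350 with median centring, 886 with trend and robust options and 20 with only the 2 groups. With the stricter filter they were 820, of only 11833 tested. With 1 array left out they were 95 to 789, fewest without rapamycin Atg7+/- replicate 2. They were over 1.5 times fewer also without rapamycin Atg7+/- replicates 1 and 4 or rapamycin Atg7-/- replicates 3 and 4. For rapamycin in Atg7+/- cells 2370 became 1559 to 2788 with 1 array left out (fewest without rapamycin Atg7+/- replicate 2), and for the difference of effects 0 became 0 to 1 (1 without rapamycin Atg7-/- replicate 2). Apart from fewer arrays, fewer groups or fewer genes tested, the cause was not tested. The replicate numbers are shared between groups, but same-numbered arrays did not deviate together in every pair (r -0.0792 to 0.358), and not every array correlated best with its own number. The pairs were closest between genotypes under rapamycin, with r of 0.240, 0.192, 0.358 and -0.0658 for replicates 1 to 4. There 3 of the 4 correlated best with their own number. In the other comparisons r ran from -0.0792 to 0.139. A fit with the replicate number as a block called 529 genes between untreated genotypes, 592 under rapamycin, 3491 (Atg7-/-) and 2492 (Atg7+/-) with rapamycin, and changed no member's call. All 8 genes lay above the limit for dim genes; signals of the arrays' background probes were not used here.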
